A study of Mus musculus with 2 samples.

Results

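Oxidative phosphorylation is the last stage of cell respiration, in which complexes I to IV of the inner mitochondrial membrane pass electrons to oxygen and pump protons, and complex V, the ATP synthase, uses the returning protons to make ATP. Complex I oxidizes NADH, complex II oxidizes succinate, complex III reduces cytochrome c and complex IV, cytochrome c oxidase, passes the electrons to oxygen. Most subunits are encoded in the nucleus, a small set is encoded in the mitochondrial DNA, and several small subunits of complex IV exist as a broadly used isoform and as an isoform restricted to heart and skeletal muscle, to testis or to other tissues.

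The genes were taken by name from the non-control spots of the array: those beginning with Nduf followed by a, b, c, s or v, with Cox followed by 4 to 8, with Uqcr or with Atp5, and the genes Sdha, Sdhb, Sdhc and Sdhd. This gave 90 of the 24323 named genes, with 134 probes in 143 spots. The total RNA came from tooth and from skin of wild-type (WT) mice at postnatal day 0 (P0), neither label naming an agent, an allele other than WT or a strain, and it was hybridised to 1 single-colour Agilent array per tissue. Both arrays lay on 1 slide, and the number of animals behind each was not stated. The tissues carried their own markers: all 6 ameloblast and odontoblast markers were well above background in tooth and not in skin (Amelx at least 1.64e+04-fold higher, where the skin side is only a bound), and 5 of the 6 epidermis markers were at least 2-fold higher in skin (loricrin, Lor, by 9.11, log2).

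Levels are log2 intensities minus the 75th percentile of their own array, so that 0 is the level below which 75% of the probes lay, and a difference is the skin level minus the tooth level (log2). A level depends on the probe, and levels of different genes are not compared. Sums over marker lists are an exception, and the brightest probes weigh most in them. With 1 array per tissue no difference could be tested, and "called" means at least 2-fold apart, a difference of 1 or more in size. The only error available was the scatter between spots of 1 probe within an array, which gave a difference an SD of 0.12. It leaves out animals, dissection and labelling. The 75th percentile of the signal before scaling was 427.9 for tooth and 276.1 for skin, while 7 of 8 spike-in transcripts differed by less than 0.05. Scaling to the spike-ins instead shifts the median of all genes by -0.63, and every other difference by the same amount, so that the medians of the complexes and of the pathway lists are also given relative to the median of all genes.

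Of the 90 genes, 88 (97.8%) were well above background, each of them on both arrays, against 71.6% of all named genes on at least 1 array. The exceptions were Cox7b2 and Cox8c, known as testis isoforms of complex IV, with levels of -6.51 and -6.43 in tooth and of -5.73 and -5.70 in skin. Neither reached that limit in tooth or skin, and no difference is given for them.

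The 88 measured genes lay close together. Their median difference was -0.16, with quartiles of -0.35 and 0.00, and the interquartile range was 0.35 against 1.05 for all 17409 measured genes, whose median was -0.04. Within 0.5 of equal levels (1.41-fold) were 79 genes, or 89.8%, against 48.5% of all genes. The signal of a probe bears on its scatter, so the same was counted over the 5044 genes whose mean level lay between the 10th and the 90th percentile of the members' mean levels: 60.7% of them lay within 0.5, their interquartile range was 0.75, and 18.3% were at least 2-fold apart in either direction. Inside that range the levels were not matched to those of the members. Among the measured genes taken by name, 2 of 88 (2.27%) were at least 2-fold higher in skin, against 14.2% of all genes. In tooth, 1 of 88 (1.14%) was at least 2-fold higher, against 15.5%. Higher in skin by any amount were 23 of 88 (26.1%), against 47.6% of all genes. Relative to the median of all genes, 30 lay above and 58 below, a split that became 10 and 78 with normexp background correction.

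**Figure D1:**
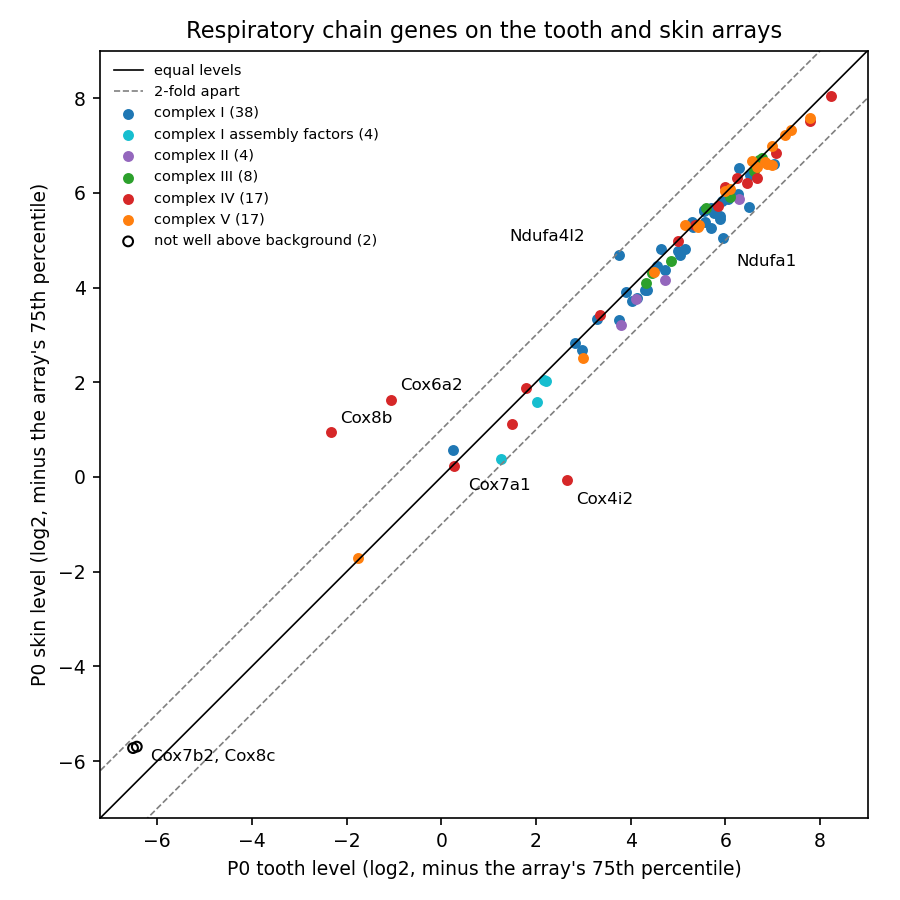
Level of each of the 90 genes on the tooth array (x axis) and on the skin array (y axis), both in log2 minus the array's own 75th percentile, coloured by complex. Open circles are the 2 genes not well above background, the solid line marks equal levels and the dashed lines 2-fold. Most points follow the line of equal levels, with Cox8b and Cox6a2 above the upper dashed line and Cox4i2 below the lower one.

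The 3 genes past 2-fold were all tissue-restricted isoforms of complex IV. Cox8b, the isoform of subunit VIII known from heart, skeletal muscle and brown fat, had a level of -2.33 in tooth and of 0.94 in skin, a 9.68-fold difference (3.27). Its probe lies at chr7:148084852-148084911 (mm9). Cox6a2, the heart and skeletal muscle isoform of subunit VIa (chr7:135349160-135349219), went from -1.07 in tooth to 1.63 in skin, 6.49-fold (2.70). Both differences were far larger than the SD of 0.12, but that SD came from the spots of other probes and not from these. Cox4i2, an isoform of subunit IV known from lung and from pericytes (chr2:152590711-152590770), showed the opposite order, with 2.65 in tooth and -0.07 in skin, 6.58-fold (-2.72). Each of the 3 was measured by 1 probe in 1 spot per array. The gene nearest to the threshold from inside was Ndufa4l2, with 3.74 in tooth and 4.69 in skin (0.95, 1.93-fold). Ndufa4l2 is a relative of Ndufa4 known to be induced by low oxygen.

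Their broadly used partners moved little. Cox8a was at 7.79 in tooth and 7.51 in skin (-0.28), Cox6a1 at 8.23 and 8.04 (-0.19), and Cox4i1 at 7.06 and 6.84 (-0.22). The difference of the restricted isoform exceeded that of its partner by 3.55 for Cox8b (11.7-fold) and by 2.89 for Cox6a2 (7.4-fold), and the same contrast was -2.50 for Cox4i2 (5.64-fold, towards tooth). These contrasts do not depend on a shift of a whole array. The other pairs gave smaller values. Cox7a1, the heart and skeletal muscle isoform of subunit VIIa, was at 0.27 in tooth and 0.23 in skin (-0.05), next to Cox7a2 with 5.35 and 5.32 (-0.03), so that this pair differed by only -0.02. Unlike Cox8b and Cox6a2, Cox7a1 was thus at similar levels on both arrays. Cox6b2, described from testis, was well above background in both tissues at 1.50 and 1.11 (-0.39), against 3.36 and 3.42 (0.06) for Cox6b1, a contrast of -0.45. Cox7b, whose partner Cox7b2 was not measurable, was at 5.99 and 6.12 (0.12). Ndufa4 was at 4.63 and 4.82 (0.18), and the contrast with Ndufa4l2 was 0.77.

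**Figure D2:**
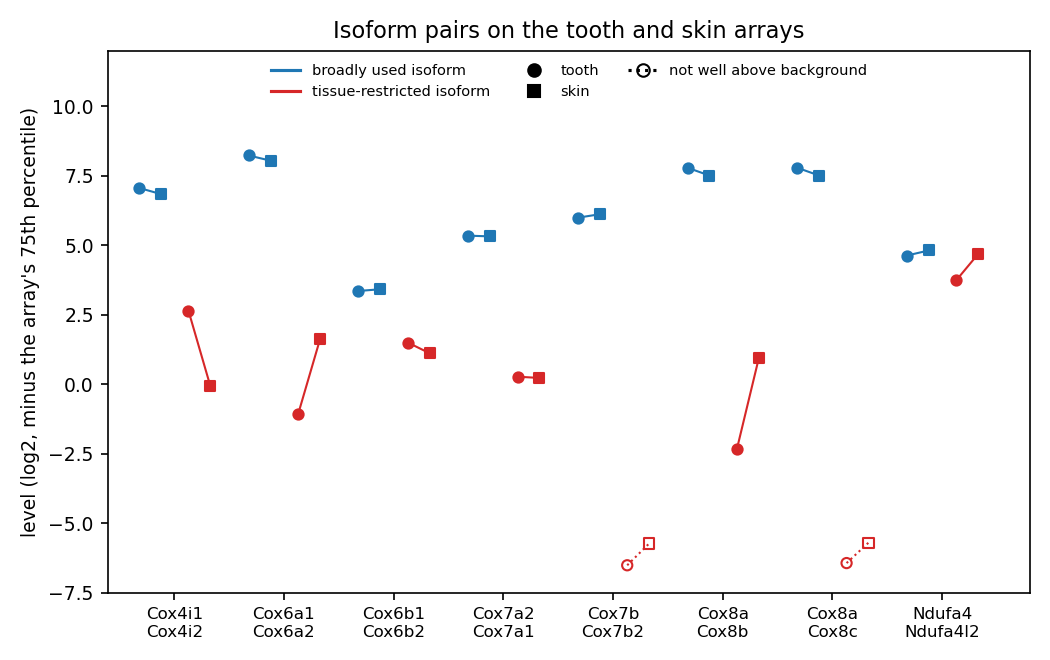
Levels (y axis, log2 minus the array's 75th percentile) of the 8 isoform pairs, with the broadly used isoform in blue and the tissue-restricted one in red. Circles are tooth, squares are skin, open symbols are not well above background, and heights of different genes are not comparable because probes differ. The blue lines are nearly flat, the lines of Cox6a2 and Cox8b rise towards skin, that of Cox4i2 falls and that of Cox7a1 is flat.

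Markers of cell types in which these isoforms are known were also compared between the arrays. Of 16 skeletal muscle markers, 14 were measured and 12 of these were at least 2-fold higher in skin, with a median of 3.33 and a level summed over the measured markers of 17.7 in tooth and 184 in skin (linear, in multiples of the 75th percentile). Actn2 (4.02), Tnnt3 (3.82) and Tnnc2 (3.56), proteins of the sarcomere, were the highest of those measured on both arrays, while Actn3 was at -1.14 in tooth and -1.61 in skin (-0.47). The defining transcription factor Myod1 and the myosin light chain Mylpf stayed under that limit in both tissues. Of 11 markers of white and brown fat, 10 were measured and 7 of these were at least 2-fold higher in skin. Elovl3 was at least 134-fold higher there, with Cidea at 7.32 and Fabp4 at 4.07. Of the genes tied to brown fat, Prdm16 went the other way, at least 2.57-fold higher in tooth, and Dio2 was at 1.49 in tooth and 0.56 in skin (-0.94). The median of the 10 fat markers with dim values at their bound was 2.53, and their summed level was 5.96 in tooth and 56.5 in skin. Cidea, at a log2 level of 4.94 in skin, weighs most in the skin sum. Whole tissue does not show which cells of the skin the Cidea and Elovl3 transcripts came from. Ucp1, the uncoupling protein that defines brown fat, was well above background in tooth (-3.29) and not in skin (-3.55). Of 8 pericyte and smooth muscle markers, 6 were at least 2-fold higher in tooth, with a median of -2.46 and a summed level of 74.8 in tooth and 22.1 in skin. Tagln, at 5.38 in tooth and 3.66 in skin, and Acta2 weigh most in the tooth sum. Rgs5, a pericyte gene, went from 1.03 to -3.09 (-4.12), Acta2 from 4.46 to 1.72 (-2.74) and Abcc9 from 0.87 to -1.80 (-2.67), whereas Cspg4 was at 2.11 and 2.35 (0.23) and Myh11 at -2.91 and -2.72 (0.18). The part of muscle, fat and pericytes in the values of Cox8b, Cox6a2 and Cox4i2 was not tested, and in whole tissue fewer cells of a type and less RNA per cell cannot be told apart.

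RefSeq start sites of 74 of the 90 genes were at hand in assembly GRCm38.p6. For Cox8b and Cox7a1, which differ in their tissue difference although both are muscle isoforms, and for their broad partners Cox8a and Cox7a2, the 250 bases before the start are shown with those of Cox6a1, the partner of Cox6a2, because it holds 2 of the motifs searched. Cox6a2, Cox4i2, Cox4i1 and Ndufa4l2 are named only. The window of Cox6b2 held none of the motifs searched and is not shown. Capitals mark matches on either strand to any of 6 motifs: GCGCATGCG for NRF1, CCGGAAG for ETS factors such as GABP, TCAAGGTCA for the estrogen-related receptors, AAGATGGCG for YY1, the E-box CANNTG bound by myogenic factors among others, and TATAAA.
Cox8b (chr7:140900447-140900696, minus strand): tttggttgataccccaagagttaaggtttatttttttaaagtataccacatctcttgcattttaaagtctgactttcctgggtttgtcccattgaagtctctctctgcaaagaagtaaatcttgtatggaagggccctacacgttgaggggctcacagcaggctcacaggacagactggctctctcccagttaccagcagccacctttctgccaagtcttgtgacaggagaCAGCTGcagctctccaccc
Cox8a (chr19:7217617-7217866, minus strand): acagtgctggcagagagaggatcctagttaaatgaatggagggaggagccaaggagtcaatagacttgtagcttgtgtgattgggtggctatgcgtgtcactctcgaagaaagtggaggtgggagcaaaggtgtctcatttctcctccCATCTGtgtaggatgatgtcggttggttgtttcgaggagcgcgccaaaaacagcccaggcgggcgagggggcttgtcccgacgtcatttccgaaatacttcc
Cox7a1 (chr7:30183921-30184170, plus strand): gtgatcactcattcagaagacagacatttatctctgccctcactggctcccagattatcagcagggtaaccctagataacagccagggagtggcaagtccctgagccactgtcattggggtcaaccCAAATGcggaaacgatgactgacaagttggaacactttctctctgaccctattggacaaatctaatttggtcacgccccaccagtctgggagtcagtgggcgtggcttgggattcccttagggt
Cox7a2 (chr9:79759854-79760103, minus strand): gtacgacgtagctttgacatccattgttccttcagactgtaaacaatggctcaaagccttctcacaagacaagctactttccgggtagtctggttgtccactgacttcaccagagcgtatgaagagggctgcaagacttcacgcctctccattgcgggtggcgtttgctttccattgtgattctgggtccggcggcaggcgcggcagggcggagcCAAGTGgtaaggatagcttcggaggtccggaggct
Cox6a1 (chr5:115348959-115349208, minus strand): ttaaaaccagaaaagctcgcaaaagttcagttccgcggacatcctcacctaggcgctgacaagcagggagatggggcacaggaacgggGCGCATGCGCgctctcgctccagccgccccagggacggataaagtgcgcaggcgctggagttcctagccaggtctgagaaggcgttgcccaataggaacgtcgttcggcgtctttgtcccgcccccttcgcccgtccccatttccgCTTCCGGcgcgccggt

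Each of the first 4 windows held 1 E-box and no other motif before the start. In the 50 bases after the start, which are not shown, Cox8b alone of these 4 held TATAAA, with a further E-box, and Cox8a held ETS letters across and after its start. Cox6a1 held 1 stretch matching NRF1 and 1 matching ETS. Over the full windows, from 250 bases before to 50 after the start, the NRF1 letters were found in 9 of the 74 genes (12.2%) against 1.95% of 27025 genes in the table. For ETS the count was 17 (23%) against 9.93%, for YY1 8 (10.8%) against 1.64%, and for the estrogen-related receptors 2 (2.7%) against 0.466%. The E-box was found in 53 (71.6%) against 75%, and TATAAA in 7 (9.46%) against 15.7%. Overlapping matches were counted once, and a gene counted if any of its listed starts held the motif. The median GC content of the 250 bases was 56.5% for the 74 genes and 52.4% for all genes. A match is a stretch of letters and not a measured binding site.

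By complex, the medians ran from -0.05 to -0.49. Complex I, with 38 genes by name, had a median of -0.20, or -0.16 relative to all genes (27 of 38 higher in tooth, against 9131 of all 17409 measured genes). Its 7 nuclear core subunits, which carry the flavin and the iron-sulfur clusters, lay between -0.39 (Ndufs1) and 0.08 (Ndufv1), with a median of -0.23, and the 29 accessory subunits apart from Ndufa4 and Ndufa4l2 had a median of -0.20. Core and accessory subunits therefore had similar medians. At the ends of complex I stood Ndufa4l2 and Ndufa1, a small accessory subunit, which was at 5.94 in tooth and 5.04 in skin (-0.90, 1.86-fold). Ndufa2 (6.49 and 5.70, -0.79) was next to it, and the genes nearest to the median of the complex were Ndufv3 (-0.19) and Ndufa5 (-0.20). Ndufa4 was first counted in complex I and is now placed with complex IV. With Ndufa4l2 it formed a pair in which both genes were higher in skin (median 0.57). The 4 complex I assembly factors that the names included had a median of -0.30 (-0.26 relative to all genes) and were all higher in tooth, from Ndufaf1 (-0.12) through Ndufaf2 (-0.18) and Ndufaf4 (-0.43) to Ndufaf3, which was at 1.25 in tooth and 0.38 in skin (-0.87).

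Complex II, succinate dehydrogenase, was the group with the lowest median (-0.49, or -0.44 relative to all genes). The flavoprotein Sdha was at 4.11 in tooth and 3.76 in skin (-0.35), the iron-sulfur protein Sdhb at 6.30 and 5.87 (-0.42), and the membrane anchors Sdhc at 3.79 and 3.22 (-0.57) and Sdhd at 4.72 and 4.17 (-0.55). All 4 were thus higher in tooth, by 1.27 to 1.49-fold, and second probes of Sdhb (-0.45) and Sdhc (-0.49) gave like values. Complex III had a median of -0.14 (-0.10 relative to all genes), and its 8 genes spanned -0.28 to 0.08 by the brightest probe of each. Uqcrb was then the highest (0.08) and the core protein Uqcrc2 the lowest, with Uqcr11 (-0.13) and Uqcrc1 (-0.15) around the median. Further probes well above background lay outside that span for Uqcr10 (-0.50) and Uqcrb (0.12 and 0.40). Uqcrc2 was the best measured, with 9 spots in tooth and 10 in skin, at 4.84 (SD 0.03 among spots) and 4.56 (SD 0.03), a difference of -0.28. That difference exceeded the spot scatter, which says nothing of the spread between animals.

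Complex IV had a median of -0.05 over 17 measured genes (-0.0025 relative to all genes), with Cox7a1 itself at the median, and it held both the highest and the lowest of the 88 values. The 6 broadly used isoforms of the pairs lay between -0.28 (Cox8a) and 0.12 (Cox7b). Cox4nb and Cox7a2l are in this group by name and do not belong to the enzyme itself. Cox4nb is now Emc8, a subunit of a membrane protein insertion complex of the endoplasmic reticulum (0.10), and Cox7a2l is a factor for respiratory supercomplexes (-0.36). Complex V had a median of -0.12 (-0.07 relative to all genes) and spanned -0.49 to 0.17. The 5 genes of its catalytic F1 part had a median of -0.12, with Atp5a1, at the median of the complex, at 6.66 in tooth and 6.54 in skin (-0.12), Atp5b at 7.79 and 7.58 (-0.21), and Atp5d the highest (0.17). The 3 genes for the proton-carrying c-ring lay between -0.19 (Atp5g3) and 0.01 (Atp5g1), and the 4 peripheral stalk genes between -0.17 (Atp5f1) and -0.03 (Atp5h). A dimmer probe of Atp5g1, at 3.77 in tooth and 4.32 in skin, gave 0.55. The lowest was Atp5sl (-0.49), now Dmac2 and not a subunit, and Atp5s (0.06) is likewise now Dmac2l. A further 6 genes that RefSeq now names as members, but the array under older names, lay between -0.36 and -0.03, and none was higher in skin.

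**Figure D3:**
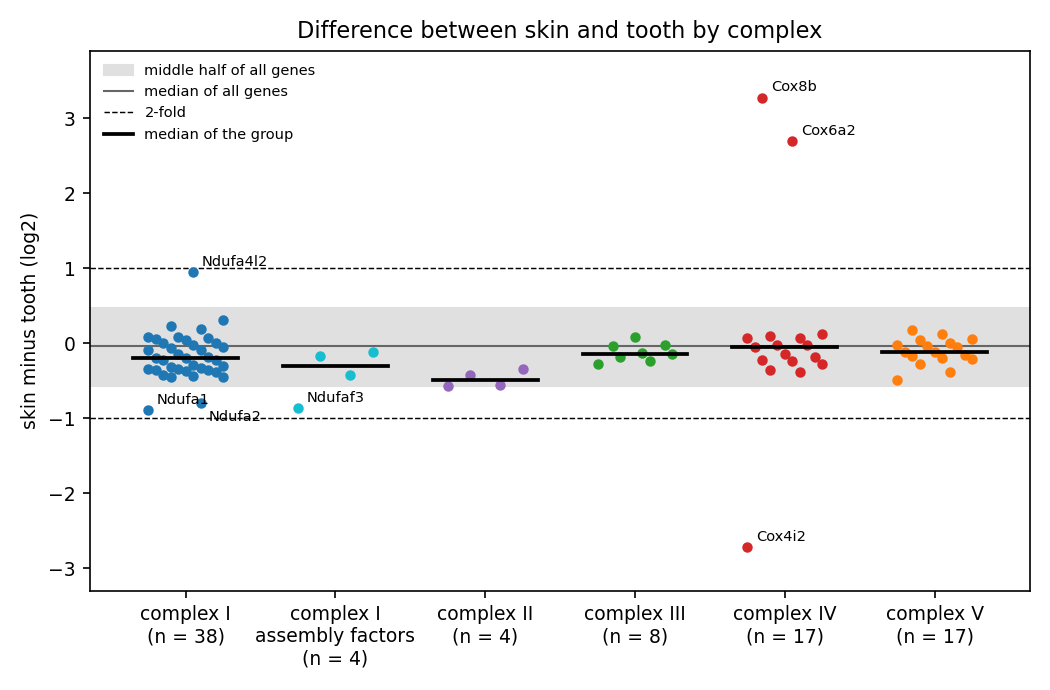
Difference between skin and tooth (y axis, log2) of the 88 measured genes by complex (x axis), 1 point a gene, with the median of each group as a black bar. The grey band spans the quartiles of all 17409 genes (-0.58 to 0.47), the grey line is their median and the dashed lines mark 2-fold. All but Cox8b, Cox6a2 and Cox4i2 lie between the dashed lines, and all 4 genes of complex II lie below the median of all genes.

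Probes of 1 gene gave a second look at these small differences. Of 30 genes with several probes, 29 had more than 1 probe well above background on both arrays, and the gap between their lowest and highest difference had a median of 0.09. The 6 overlapping probes of Atp5l lay between 0.06 and 0.15, and the 3 of Atp5k between -0.09 and 0.05, although 2 of these are placed on another chromosome. In 4 genes the probes differed in sign, and in no gene were they 2-fold apart in opposite directions. The largest gap was that of Ndufb5 (1.41), whose 4 probes gave -0.42, -0.37, 0.07 and 0.98. The value of 0.98 came from its dimmest probe, at -4.39 in tooth and -3.41 in skin. Ndufa3 was next, with -0.23 and -0.38 from brighter probes and -1.09 from a probe at -2.44 and -3.53.

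The subunits encoded in the mitochondrial DNA differed in direction from most of the nuclear genes taken by name. All 13 were higher in skin, by 0.16 to 0.91, with a median of 0.60 (0.64 relative to all genes), and none reached 2-fold. COX1, the catalytic subunit of complex IV, was at 8.73 in tooth and 9.59 in skin (0.86), CYTB of complex III at 7.78 and 8.19 (0.41), ATP6 of complex V at 6.83 and 7.46 (0.64), and ND5 of complex I, the highest difference, at 3.51 and 4.42 (0.91). The lowest was ND3, at 6.79 and 6.95 (0.16), and its probe is the only 1 that the array places in a nuclear chromosome rather than in the mitochondrial genome. The median was 0.76 (1.69-fold) above that of the nuclear genes, of which 7 of 88 lay above the lowest mitochondrial value and 81 at or below it. Under spike-in scaling 6 of 13 were higher in skin and their median was -0.03, while the nuclear genes then had a median of -0.79 and the gap remained 0.76. The direction relative to equal levels thus turned on the scaling, and the gap between both genomes did not, because a shift of a whole array cancels in it. All 13 transcripts derive from 1 small genome and are not independent of each other.

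Among the other genes of the pathway, 27 assembly factors and electron carriers outside the naming rule were measured, with a median of -0.21 when 2 genes dim in skin were set at their bound (-0.17 relative to all genes). Of the 25 measured on both arrays, 18 were higher in tooth, against 9131 of all 17409 measured genes. Only Acad9, which assists complex I assembly, was at least 2-fold higher in skin (2.33 in tooth and 4.06 in skin, 1.73), and only Ttc19, a complex III factor, in tooth (1.61 and 0.49, -1.12). Cycs, cytochrome c, was at 5.15 and 4.70 (-0.45). The list for the tricarboxylic acid cycle, which feeds the chain with NADH and succinate, also held the pyruvate dehydrogenase genes Pdha1 (-0.42) and Pdhb (-0.32). In this list 13 of 15 genes were higher in tooth (median -0.36, or -0.31 relative to all genes). Of these, Suclg2 (-1.14) and Dlst (-1.04) passed 2-fold, against 15.5% of all genes. Under spike-in scaling 7 of the 15 were at least 2-fold higher in tooth, against 32.6% of all genes. Among 9 measured genes for ATP handling the median was -0.30 (-0.25 relative to all genes), and the sarcomeric mitochondrial creatine kinase Ckmt2, a muscle gene, was the only 1 past 2-fold (-3.85 in tooth and -1.75 in skin, 2.10). The 13 regulators of mitochondrial biogenesis had a median of 0.06 (0.11 relative to all genes). Ppargc1a, the coactivator PGC-1alpha, stood apart from them at 0.18 in tooth and -2.51 in skin (-2.69), whereas Nrf1 (0.09), Gabpa (0.08), Esrra (0.08) and Tfam (-0.19) lay within 0.5 of equal levels.

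**Figure D4:**
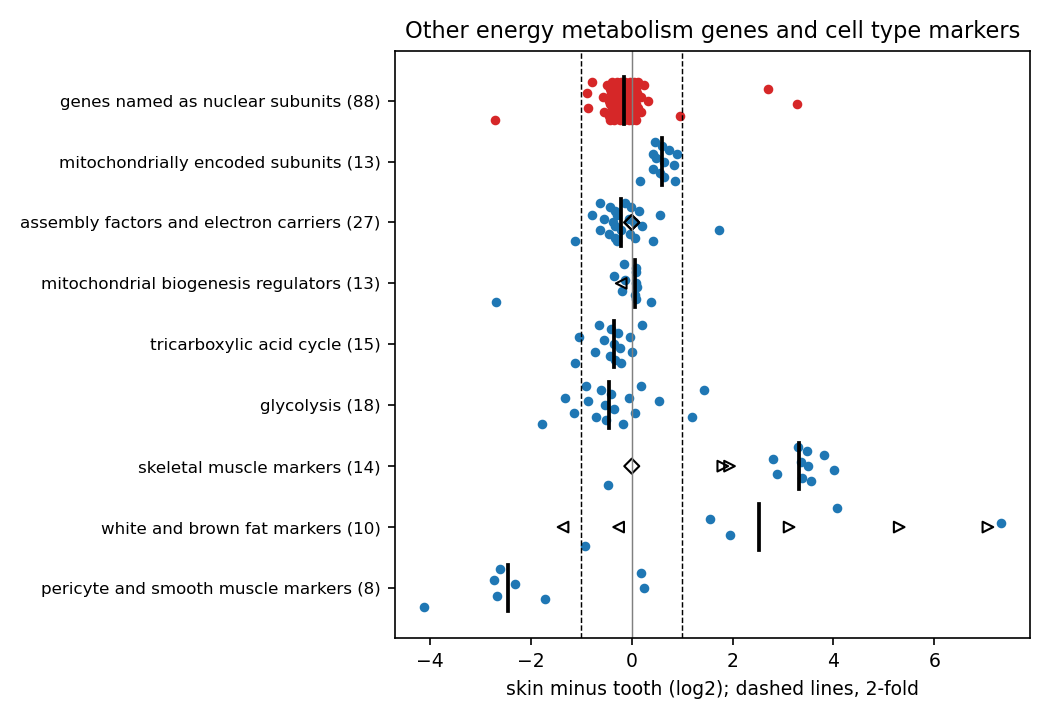
Difference between skin and tooth (x axis, log2) for the 88 nuclear genes (red) and for 8 other lists (blue), 1 point a gene, with the number measured in brackets. Open triangles are bounds for genes well above background on 1 array only, open diamonds such genes whose bound was about 0, and black bars medians with these at their bound. The mitochondrially encoded genes lie to the right of most nuclear ones, 12 of 14 muscle markers beyond 2-fold on the skin side and 6 of 8 pericyte and smooth muscle markers beyond 2-fold on the tooth side.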

How the data were processed

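Total RNA of P0 WT tooth and P0 WT skin was measured on 1 Agilent array each. Per the file headers, the deposited spot intensities came from Feature Extraction (version 10.7.3.1 per the submitters' processing notes), which subtracted the background, removed spatial trends and set the dimmest values to surrogates (22.8% of non-control spots in tooth, 25.5% in skin, and 2 member spots on each). The study's methods name GeneSpring, a percentile shift and a filter on dim entities. A second table deposited by the authors holds, on a linear scale and not centred on genes, the ratio of each processed intensity to a constant of its array (tooth 430.7, skin 274.5), with column medians of 0.081 and 0.0989. The labels give P0, the methods a later day, and the labels were followed.

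Outlier spots were left out, spots of a probe averaged on the log2 scale, and the 75th percentile over the 55675 probes subtracted. A probe counted as measured when the software called over 50% of its spots well above background, and the brightest probe stood for a gene if it was measured on at least 1 array. A fold against a dim value is a bound, set at the lowest signal called well above background on that array (-4.52 in tooth, -3.73 in skin, log2). Of 33182 named probes, 27234 matched RefSeq accessions, 120 of the 134 member probes among them. Matched probes took the RefSeq name, except that members kept the name on the array. Probe coordinates are mm9. Exon, intron and UTR were not analysed. Members, lists and motifs were chosen with earlier results of these data known. Genes named are those at least 2-fold apart, the ends and middle of each complex, the isoform pairs, members with discordant probes and the leading genes of each list, with Ppargc1a, Cycs and Ucp1; others were picked as examples after their values were seen. Spot scatter came from probes with at least 8 spots (294 in tooth, 284 in skin). The pipeline was tested on simulated data. Alternatives were spike-in, median and quantile scaling, normexp (limma 3.58.1, R 4.3.3, offset 50), other filters, the mean of probes and the deposited ratio. Python 3.11.15, numpy 2.4.6 and pandas 2.3.3 were used. The number of arrays limits the precision.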

Additional observations from a re-analysis of the deposited data

How the results depend on the processing

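Under all 8 alternatives Cox8b and Cox6a2 were the only 2 genes at least 2-fold higher in skin, and Cox4i2 stayed at least 2-fold higher in tooth. The filters on dim probes and the mean of probes could not change the values of these genes, each measured by 1 probe. The deposited ratio shifts every difference by only 0.02. The count of genes at least 2-fold higher in tooth was 1, and it became 17 with spike-in scaling, 4 with the median of all probes and 2 with quantile normalization, with Ndufa1 (-1.53, -1.14 and -1.03) joining in each. The share of all genes at least 2-fold higher in tooth was 32.6%, 20.1% and 16.7% in these settings, against 15.5% with the main scaling. Spike-in scaling and the median shift lower every difference alike, and 3 and 4 of the 88 genes were then higher in skin. Without a filter on dim probes the all-gene median rose by 0.22 because dim genes entered. The median relative to all genes was then -0.33 for all members, -0.48 for complex I assembly factors, -0.38 for complex I, -0.67 for complex II, -0.32 for complex III, -0.21 for complex IV and -0.30 for complex V. With normexp background correction these were -0.28, -0.38, -0.345, -0.59, -0.26, -0.17 and -0.22, and the contrast of Cox4i2 with Cox4i1 was -2.12, of Cox6a2 with Cox6a1 2.61, of Cox8b with Cox8a 2.90 and of Cox7a1 with Cox7a2 0.15. The cause was not tested. Quantile normalization gave -2.24, 3.19 and 3.79 for the first 3 of these contrasts, and a median relative to all genes of -0.20 for all members, -0.19 for complex III, -0.04 for complex IV and -0.14 for complex V. Members above and below the all-gene median numbered 20 and 68 with quantile normalization, 10 and 78 with normexp and 8 and 82 without a filter. The gap between the mitochondrially encoded genes and the nuclear genes taken by name, an alternative chosen after seeing the data, stayed between 0.71 and 0.76. Settings that shift a whole array, namely spike-in scaling, the median shift and the deposited ratio, cannot change that gap. No member past 2-fold changed sign. No paired analysis was possible because each tissue had 1 array, and among the members past 2-fold the tooth signal of Cox8b was nearest to the limit of measurement.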

Other observations

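Glycolysis, which supplies pyruvate to the mitochondria, was also mostly higher in tooth. Of its 18 genes, 13 were higher in tooth, against 9131 of all 17409 measured genes. The median (log2, skin level minus tooth level) was -0.45. Relative to all genes the median was -0.41. At least 2-fold higher in tooth were Ldhb (-1.78), the lactate dehydrogenase subunit of oxidative tissues, Pgam1 (-1.33) and Hk2 (-1.15). At least 2-fold higher in skin were the muscle enolase Eno3 (2.10 and 3.53, 1.43) and Pfkp (1.19). Of all genes, 15.5% were at least 2-fold higher in tooth and 14.2% in skin. Under spike-in scaling the median was -1.08, with 10 genes at least 2-fold higher in tooth and 0 in skin. The median of all genes was then -0.67, with 32.6% of them at least 2-fold higher in tooth and 9.02% in skin. The glycolysis genes spread more widely than the respiratory chain genes, with an interquartile range of 0.86 against 0.35.

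The 9 hypoxia-induced genes had a median of -0.02 (0.03 relative to all genes) and did not move together. Egln3 (4.93), Ankrd37 (1.20) and Adm (1.16) were at least 2-fold higher in skin, while Car9 (-2.17) and Vegfa (-1.84) were at least 2-fold higher in tooth. The 8 housekeeping genes had a median of 0.20, and Ywhaz (1.10) was the only 1 past 2-fold. Of 6 male germ cell markers 3 were measured, of which Prm2 (0.45) and Tnp1 (0.58) were above background in both tissues and Sycp3 in tooth only, and the germ cell genes Ddx4, Dazl and Prm1 stayed below that limit in both tissues, as did Cox7b2 and Cox8c.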
